A study of Homo sapiens with 8 samples.

Results

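Nuclear RNA from Pcif1-KO cells was set against that from WT cells, both of the human embryonic kidney line HEK293T and both transfected with the scrambled siRNA siScram. All genes with a siScram ratio in the authors' deposited tables were taken, which gave 7893 of the 8801 gene IDs that hold a ratio for either siRNA in the series. Each genotype had 1 siScram library. The cells received 5 pmol of siRNA, nuclei were prepared 48 h later, and mRNA was read from its 3′ end. The series' design text names s4U, a uridine analogue that enters newly made RNA, but it is not given in the sources used here whether the ratios rest on labelled RNA alone. A second library pair from the same genotypes had received siPCF11, an siRNA against the cleavage and termination factor PCF11, and is used here beside siScram. Apart from the siRNA and the genotype, the labels give no further difference between these libraries and do not say how many Pcif1-KO clones were used. With 1 library per group the loss of PCIF1 and any other difference between the lines cannot be told apart.

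PCIF1 is the cap-specific adenosine methyltransferase of vertebrates. It acts on capped RNA whose first transcribed base is an adenosine that already carries a 2′-O-methyl group, and adds a methyl to its N6 position to give m6Am. Transcripts that begin with another base carry no m6Am at that place. The authors had divided their genes into m6Am and non-m6Am genes and, separately, into a long and a short class.

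Every ratio is a log2 ratio of WT over Pcif1-KO, so a positive value is higher in WT cells and a negative value is higher in Pcif1-KO cells. No counts or levels were given, and the depth behind a ratio is unknown. PCIF1 itself was not analysed here. Of the 7893 genes, 7829 (99.2%) matched a RefSeq gene and 7819 of these were protein coding. Neuron, haematopoietic, fibroblast, epithelial and muscle marker lists had 0 genes with a siScram ratio. Of 12 genes often seen in HEK293T cells, 9 had one, with a median of -0.17.

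Most genes differed little between the genotypes. The median siScram ratio was -0.0096, the middle 50% of genes lay between -0.23 and 0.21, and the SD over genes was 0.345. Of all genes, 3856 (48.9%) were above 0 and 4037 (51.1%) below it. A ratio above 0.5 was listed for 482 genes (6.11%) and one below -0.5 for 551 (6.98%). Past a 2-fold difference there were 31 genes above 1 (0.393%) and 41 below -1 (0.519%). These shares are the background for the counts of gene groups given further on.

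Which genes stood apart from the spread between libraries was tested with limma on the siScram and siPCF11 ratios together, since siScram alone has no replicate. The fit covered the 7591 genes with both ratios and used 1 common SD of 0.28 between library pairs, which gave each mean a standard error of 0.20. At an adjusted p under 0.05, 203 genes were higher in WT cells (2.67%) and 214 were lower in WT cells (2.82%). The siScram ratio is part of that test, so it is no independent check of a gene picked for its siScram ratio. Without moderation of the variance, limma called 0 genes in either direction, with 559 genes at an unadjusted p under 0.05, against 1343 with it. A true change of the ratio with siPCF11 counts as error in this fit.

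The 15 genes lowest in WT relative to Pcif1-KO cells came from unlike families. They held 3 X-linked genes, CITED1, MAGEA1 and MAGEH1, the neurofilament gene NEFM, transcription factors of the GATA family, and genes that serve protein folding and sugar-nucleotide supply. NEFM, the medium neurofilament chain, was at -2.71 under siScram and -3.23 under siPCF11 in the authors' deposited tables. That siScram value is 6.56-fold higher in Pcif1-KO cells. CITED1, a co-regulator that binds CBP and p300, was at -2.23 and -2.98 with the same siRNAs in the authors' deposited tables, or 4.68-fold higher in Pcif1-KO cells with siScram. Both genes fell in WT relative to Pcif1-KO cells by the limma test over both library pairs, with adjusted p of 1.10e-45 for NEFM and 5.31e-35 for CITED1.

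Among the MAGE genes, MAGEA1 had ratios of -1.74 under siScram and -2.21 under siPCF11 in the authors' deposited tables. MAGEH1 had -1.74 and -1.86 there. MAGEA1 is a cancer-testis antigen gene, silent in most somatic tissues. GATA3 and GATA6, zinc finger transcription factors of development, were at -1.63 and -1.26 with siScram in the authors' deposited tables, and at -1.46 and -1.14 with siPCF11. All of these were called lower in WT cells by limma, the weakest being GATA6 with an adjusted p of 4.38e-07.

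The remaining low genes varied in how alike their ratios were between the library pairs. HYOU1, a chaperone of the endoplasmic reticulum (ER), was at -1.40 under siScram and -1.14 under siPCF11 in the authors' deposited tables, and ADM, which encodes the peptide hormone adrenomedullin, at -1.38 and -1.57. GMPPB, which makes GDP-mannose for glycosylation, was at -1.24 and -1.003, and the protocadherin PCDH7 at -1.21 and -1.54 in the authors' deposited tables. JMJD8, UQCRC1, REX1BD and CHAC1 were between -1.37 and -1.18 with siScram, but their siPCF11 ratios lay between -0.43 and -0.05, in the authors' deposited tables. ATOH8, a helix-loop-helix transcription factor, was at -1.22 in the authors' deposited tables and, lacking a siPCF11 ratio, was not tested. The other 14 of these 15 genes were called lower in WT cells by limma, with the largest adjusted p, 0.039, for REX1BD. Its call was lost in the fit on ratios set against the median of neighbours within 10 Mb (limma adjusted p = 0.080). That fit also gave weight to each gene's own spread between the library pairs. With each ratio set against the chromosome median, REX1BD kept its call (limma adjusted p = 0.027).

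At the other end, the 15 genes highest in WT relative to Pcif1-KO cells held developmental transcription factors, growth regulators and genes of little-known function. RUNX3, a transcription factor of blood and nerve cell development, was at 2.28 under siScram and 0.55 under siPCF11 in the authors' deposited tables, a 4.85-fold excess in WT cells with siScram. KRTAP19-1, a hair keratin-associated protein gene on chromosome 21, was at 2.26 and 1.64 in the authors' deposited tables. TSC22D3, which encodes the glucocorticoid-induced leucine zipper GILZ, was at 1.82 and 1.15 there. These 3 genes rose in WT relative to Pcif1-KO cells by limma over both pairs, with adjusted p of 5.97e-10 for RUNX3, 3.39e-19 for KRTAP19-1 and 5.99e-11 for TSC22D3. These p-values rest on the common SD and not on the gap between each gene's 2 ratios, which was wide for RUNX3. With ordinary variance per gene, limma gave them adjusted p between 0.68 and 0.75.

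RPP25, a subunit of ribonuclease P and MRP, was at 1.51 under siScram and 1.67 under siPCF11 in the authors' deposited tables. The homeobox gene UNCX was at 1.44 and 2.13, and LRATD2 at 1.42 and 2.11, in the authors' deposited tables. PHLDA3, a p53 target that restrains AKT signalling, had 1.40 with siScram and the highest siPCF11 ratio of the siScram genes, 2.32, in the authors' deposited tables. CCND1, the gene of the G1 cyclin D1, was at 1.37 and 0.65 in the authors' deposited tables. It lies on chromosome 11, where most genes were lower in WT cells. RPRML, BCL6B, FOXRED2 and ZNF672 had siScram ratios between 1.21 and 1.35 and siPCF11 ratios between 0.96 and 1.61 in the authors' deposited tables. STK35, NCOA5 and PITHD1, at 1.28, 1.17 and 1.16 with siScram, were at 0.58, 0.58 and 0.55 under siPCF11 in the authors' deposited tables. All 15 were called higher in WT cells by limma, with the largest adjusted p, 0.0013, for PITHD1. Set against the median of their neighbours within 10 Mb, STK35, NCOA5 and PITHD1 were no longer called, with limma adjusted p of 0.085, 0.088 and 0.10.

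**Figure D1:**
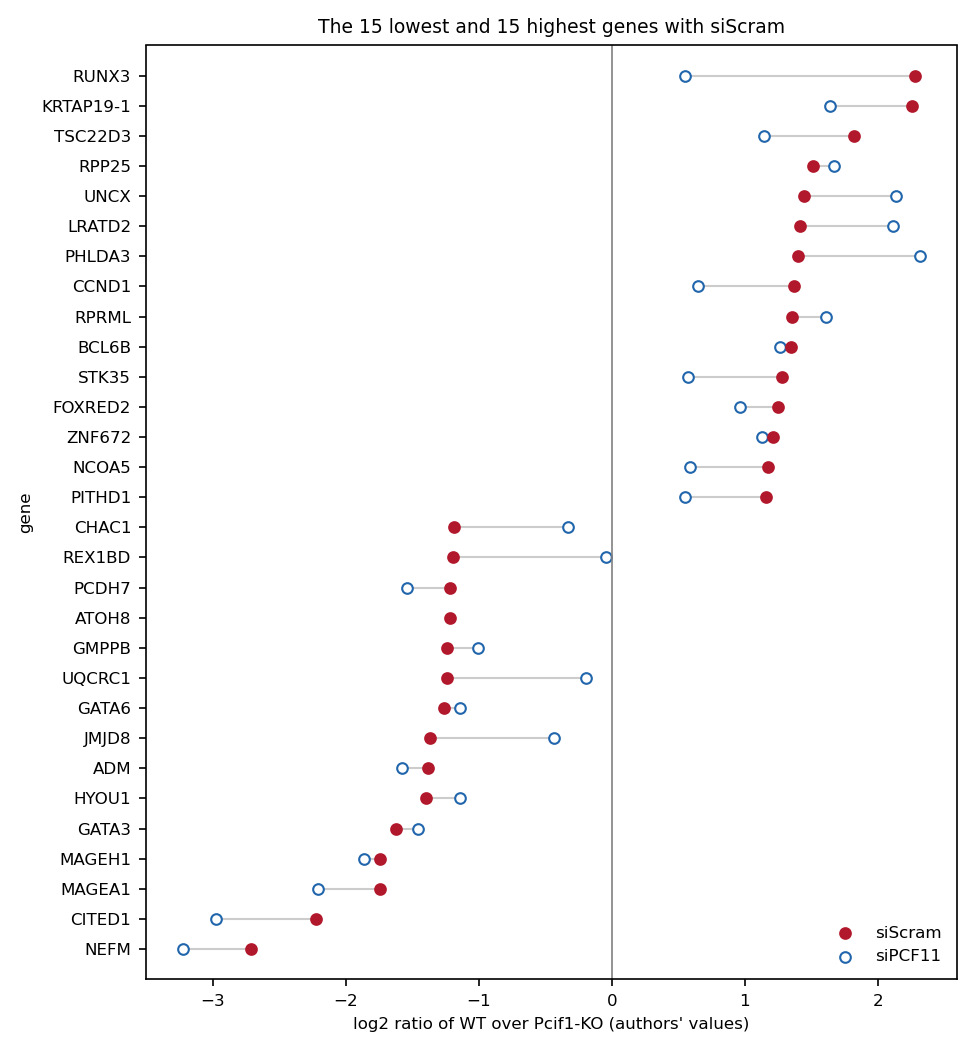
The 15 highest and 15 lowest siScram genes, 1 per line, with the log2 ratio (WT over Pcif1-KO) on the x axis. Filled points are siScram and open points siPCF11, 1 library pair each, and ATOH8 has no siPCF11 ratio. RUNX3 at 2.28 under siScram and 0.55 under siPCF11 shows the widest gap between the siRNAs at the high end, and REX1BD at -1.20 and -0.05 the widest at the low end.

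Genes past 1 or -1 mostly kept their direction in the siPCF11 libraries. Of the 31 genes above 1 with siScram, 30 were also above 0 with siPCF11, and 14 were again above 1. Of the 41 below -1, 39 had a siPCF11 ratio, of which 36 were below 0 and 14 below -1. In the wider group above 0.5, 374 of 473 genes with a siPCF11 ratio (79.1%) kept their sign, and below -0.5, 411 of 522 (78.7%) did. Over all 7591 genes with both ratios Pearson's r was 0.43 and Spearman's rho 0.36, as a description across genes that share their libraries. The 31 high genes held 24 m6Am genes and the 41 low genes 21, against 4103 m6Am genes among all 7893.

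**Figure D2:**
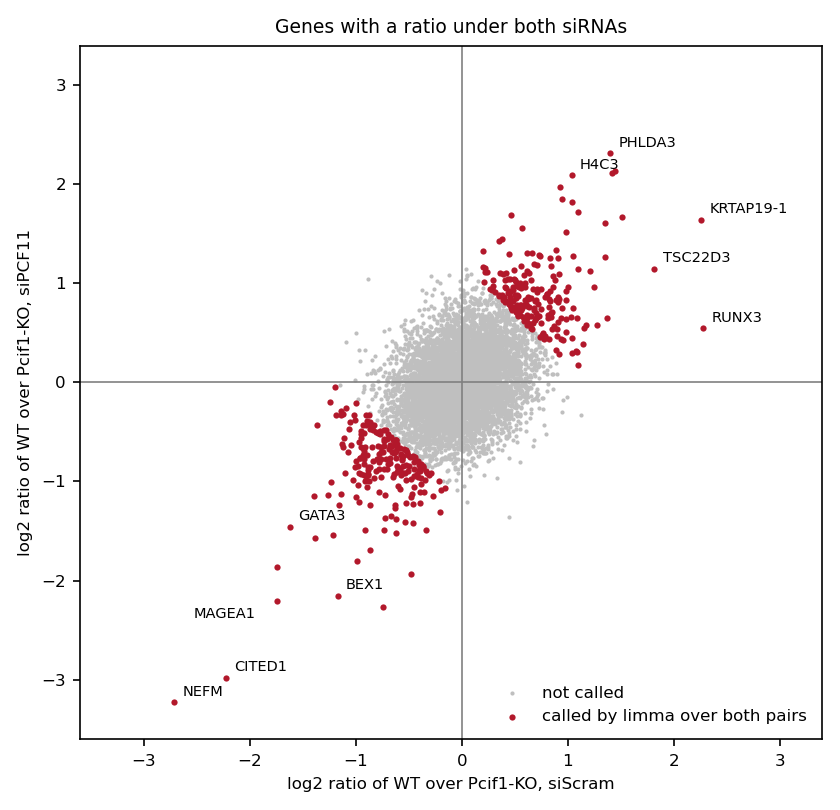
Log2 ratios (WT over Pcif1-KO) with siScram (x axis) and with siPCF11 (y axis) for the 7591 genes with both, 1 point per gene. Red points are the 203 higher and 214 lower genes called by limma at an adjusted p under 0.05, and grey points were not called. NEFM and CITED1 lie far out at the lower left, and RUNX3 lies far to the right but near the x axis.

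The first transcribed base of a gene decides whether its RNA can carry m6Am, so RefSeq start sites (build GRCh38.p14) were set beside the authors' classes. The stretches that follow hold 30 bases before the RefSeq start and 20 from it, with the first transcribed base in capitals, for the lowest and highest m6Am genes with a RefSeq promoter sequence and then for such non-m6Am genes. They show that the annotated start need not match the class, since JMJD8, TSC22D3 and RPP25 are listed as m6Am genes but have G at the RefSeq start.
CITED1 (m6Am, siScram -2.23, chrX:72307138-72307187, minus strand): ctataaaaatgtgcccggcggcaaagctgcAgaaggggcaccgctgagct
HYOU1 (m6Am, siScram -1.40, chr11:119057186-119057235, minus strand): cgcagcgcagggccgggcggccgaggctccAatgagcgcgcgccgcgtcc
JMJD8 (m6Am, siScram -1.37, chr16:684315-684364, minus strand): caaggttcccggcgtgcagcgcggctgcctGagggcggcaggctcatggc
KRTAP19-1 (m6Am, siScram 2.26, chr21:30480348-30480397, minus strand): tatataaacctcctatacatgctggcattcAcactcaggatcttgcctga
TSC22D3 (m6Am, siScram 1.82, chrX:107775969-107776018, minus strand): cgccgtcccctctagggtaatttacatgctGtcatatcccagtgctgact
RPP25 (m6Am, siScram 1.51, chr15:74956753-74956802, minus strand): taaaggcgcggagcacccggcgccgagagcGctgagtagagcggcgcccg
GATA3 (non-m6Am, siScram -1.63, chr10:8045303-8045352, plus strand): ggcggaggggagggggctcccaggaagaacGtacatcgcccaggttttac
ADM (non-m6Am, siScram -1.38, chr11:10305043-10305092, plus strand): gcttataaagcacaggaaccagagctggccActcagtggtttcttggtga
RUNX3 (non-m6Am, siScram 2.28, chr1:24964991-24965040, minus strand): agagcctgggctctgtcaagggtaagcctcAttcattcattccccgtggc
The siScram values on these lines are those of the authors' deposited tables.

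Over all 6554 genes with a RefSeq promoter (83.0%), the start base was A in 1710 of 3475 m6Am genes (49.2%) and in 1208 of 3079 non-m6Am genes (39.2%). A pyrimidine directly before that A was found in 45.4% of m6Am and 35.1% of non-m6Am promoters. The median siScram ratio of genes that start with A was -0.0031 among m6Am genes and -0.033 among non-m6Am genes. Genes that start with G had medians of 0.0010 for m6Am and -0.0026 for non-m6Am genes. No start base with more than 100 genes had a median past 0.1 in either direction.

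The authors' own classes showed similarly small shifts. Long m6Am genes had a median siScram ratio of 0.023 over 2013 genes and long non-m6Am genes one of -0.0095 over 2503. Short m6Am genes had a median of -0.026 over 2090 genes and short non-m6Am genes one of -0.030 over 1287. Called genes were found in each class. Among long m6Am genes 57 were higher and 39 lower in WT cells by limma, of 1983 tested. Among long non-m6Am genes the counts were 44 and 51 of 2404, among short m6Am genes 67 and 78 of 2025, and among short non-m6Am genes 35 and 46 of 1179. Each class held a share of called genes between 1.83% and 3.90% in either direction, against 2.67% and 2.82% over all genes.

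By RefSeq gene span, the shortest and the longest genes lay lowest. The shortest of 10 equal bins, 0.389 to 5.02 kb, had a median of -0.12 and 99 of 783 genes below -0.5 (12.6%, against 6.98% over all genes). The longest bin, 129 to 1355 kb, had a median of -0.091 and 66 of 783 genes below -0.5 (8.43%). The middle bins had medians between -0.029 and 0.030. In the authors' short class were 27 of the 31 small-subunit and 45 of the 47 large-subunit ribosomal protein genes described further on.

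Whole chromosomes were shifted between the genotypes. On chromosome 11, 380 of 443 genes were lower in WT cells, with a median of -0.29, and on chromosome 20, 188 of 227 genes were higher in WT cells, with a median of 0.29. The siPCF11 medians of these chromosomes were -0.27 and 0.37. Chromosome 21 had a median of 0.19 over 77 genes and chromosome X one of -0.12 over 266 genes, while the other chromosomes lay between -0.072 and 0.094. Copy number was not measured here, and its part in these shifts was not tested.

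The shift of chromosome 11 was found in each of its windows that held enough genes, and its stretches with fewer genes were not assessed. Of its 9 windows of 10 Mb with at least 15 genes, 0 had a median above 0 and 7 were below -0.2. All 6 such windows of chromosome 20 were above 0, and 4 of them above 0.2. Chromosome 1 was uneven, with 4 of 21 windows above 0.2. The lowest window of all lay on chromosome 17 between 30 and 40 Mb, with a median of -0.40 over 35 genes, 31 of them below 0. Its siPCF11 median was -0.30, and its lowest gene was RPL23. The window from 20 to 30 Mb of chromosome 18, which holds GATA6, had a median of -0.25 over 18 genes, so GATA6 at -1.26 in the authors' deposited tables lay well below its neighbours.

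Genes called by limma were unevenly placed in the same way. On chromosome 11, 50 of 416 tested genes fell in WT relative to Pcif1-KO cells and 2 rose, against 2.82% and 2.67% over all genes. On chromosome 20, 40 of 221 (18.1%) were called, all of them higher in WT cells. Chromosome X had 19 of 256 lower and 4 higher, chromosome 13 had 5 of 110 lower and 11 higher, and chromosome 22 had 3 of 205 lower and 14 higher. Adjacent genes under 1 kb apart had ratios that correlated with r = 0.15 over 1130 pairs, and those from 100 kb to 1 Mb apart with r = 0.16 over 2244 pairs. After each gene was set against the median of its neighbours in a 10 Mb window, these values were 0.010 and 0.036, and they describe genes of the same libraries.

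**Figure D3:**
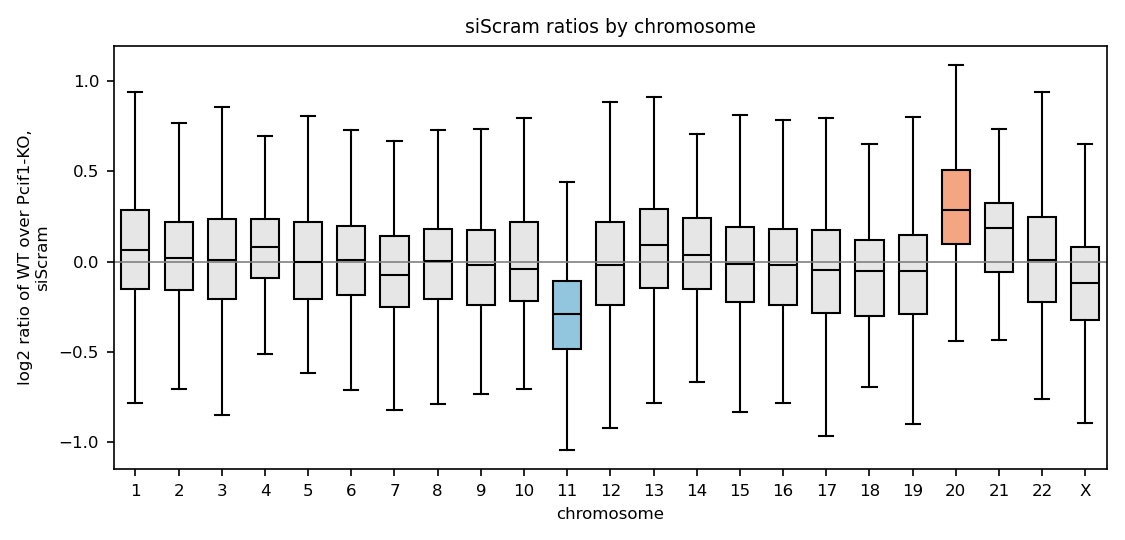
The siScram log2 ratio of WT over Pcif1-KO (y axis) by chromosome (x axis). Boxes hold the middle 50% of genes with the median as a line, whiskers end at the last gene within 1.5 times the box, and genes farther out are not drawn. The box of chromosome 11 (blue, median -0.29) lies below 0 and that of chromosome 20 (orange, median 0.29) above it.

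Gene groups were described by list, each with its count, its median and the same over all genes as background, and no list was tested as a set. Of 53 lists, 44 pathway and family lists held at least 5 genes with a siScram ratio. Of these, 26 had a median below 0 and 18 above it, and 12 lay below -0.2 but 2 above 0.2. The shifts of whole chromosomes touch these medians, so window-centred values are given beside the medians of the groups described. In these, each gene is set against the median of its neighbours in a fixed 10 Mb window. A gene in a window with under 15 genes was set against the median of its whole chromosome instead, here and wherever window centring or neighbours within 10 Mb are named. Counts of genes called by limma are to be read against the 2.82% of tested genes called lower and the 2.67% called higher in WT cells.

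Genes of both subunits of the cytosolic ribosome lay mostly below 0, on the side higher in Pcif1-KO cells. The small subunit had 28 of 31 genes below 0 (median -0.31) and the large subunit 41 of 47 (median -0.31), where 51.1% of all genes were below 0. Window-centred medians were -0.22 and -0.25. In the siPCF11 libraries the medians were -0.26 and -0.17, with 21 of 31 and 35 of 47 genes below 0. The m6Am members were at medians of -0.36 in the small and -0.34 in the large subunit, and the non-m6Am members at -0.25 and -0.28. Both classes of ribosomal genes therefore lay below 0.

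The ribosomal genes that passed the limma test were all lower in WT cells, 2 of 31 in the small subunit and 5 of 47 in the large, where 2.82% of all tested genes were called lower, so the small subunit held few calls beyond the background. RPS13 had ratios of -0.88 under siScram and -0.93 under siPCF11 in the authors' deposited tables (limma adjusted p = 0.00047). RPL36 had -0.83 and -0.96 there (limma adjusted p = 0.00057). RPL23 was lowest, at -1.16 and -1.24 in the authors' deposited tables (limma adjusted p = 4.94e-07), in the low window of chromosome 17 named above. RPL19 and RPL23A, on the same chromosome, and RPL4 and RPS19 completed the called set, with siScram ratios between -0.76 and -0.63 in the authors' deposited tables. The highest members were RPS21 on chromosome 20, at 0.41, and RPL22, at 0.32, in the authors' deposited tables. After window centring RPL19 and RPL23A were no longer called (limma adjusted p = 0.41 and 0.27), and RPS19 lost its call relative to the median of all genes (limma adjusted p = 0.056). Ribosomal protein genes have many near-identical pseudogenes, and how shared reads were assigned is not given in the sources used here.

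Ribosomal protein mRNAs are known for starting with a C followed by a run of pyrimidines, the 5′ terminal oligopyrimidine tract that couples their translation to mTOR signalling. A C at the RefSeq start followed by 4 bases that are each C or T was found in 43 of 63 ribosomal protein promoters (68.3%), against 394 of 6554 promoters (6.01%). The 40 bases around the start are shown for the 3 lowest and some of the highest ribosomal genes with a RefSeq promoter sequence, with the pyrimidine run in capitals, or the start base alone where no such run begins there.
RPS13 (siScram -0.88, chr11:17077648-17077687, minus strand): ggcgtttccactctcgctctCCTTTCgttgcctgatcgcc
RPL36 (siScram -0.83, chr19:5690275-5690314, plus strand): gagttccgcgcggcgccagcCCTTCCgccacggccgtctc
RPL4 (siScram -0.76, chr15:66504836-66504875, minus strand): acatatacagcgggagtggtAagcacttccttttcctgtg
RPS21 (siScram 0.41, chr20:62387083-62387122, plus strand): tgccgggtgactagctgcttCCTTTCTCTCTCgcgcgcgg
RPL22 (siScram 0.32, chr1:6199576-6199615, minus strand): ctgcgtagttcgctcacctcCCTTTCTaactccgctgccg
RPS6 (siScram 0.25, chr9:19380217-19380256, minus strand): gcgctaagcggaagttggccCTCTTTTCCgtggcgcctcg
The values on these lines come from the authors' deposited tables. RPS13, RPL36, RPL4, RPS21 and RPS6 are listed as m6Am genes although all but RPL4 begin with C in RefSeq. Ribosomal genes with the run had a median of -0.29 (43 genes) and those without it one of -0.34 (20 genes). Other genes with the run had a median of -0.0088 over 351 genes, close to that of all genes, so the tract at the start did not by itself go with a low ratio.

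Nuclear genes of the respiratory chain were also mostly lower in WT cells. Complex I, the NADH dehydrogenase, had 27 of 36 genes below 0 (median -0.26, window-centred -0.19), and complexes II to IV 19 of 25 (median -0.24, window-centred -0.12). The ATP synthase had 14 of 18 below 0, with a median of -0.23 before and after window centring. In the siPCF11 libraries the 3 medians were -0.10, -0.14 and -0.27, with 20 of 35, 20 of 25 and 12 of 18 genes below 0. Called by limma were 4 of 35 tested genes of complex I, 3 of 25 of complexes II to IV and 2 of 18 of the ATP synthase, all lower in WT cells, against 2.82% of all tested genes. They were NDUFB11, NDUFV1, NDUFA1 and NDUFS3 of complex I, UQCRC1 of complex III, COX6A1 and COX7B of complex IV, and ATP5MG and ATP5F1D of the ATP synthase. NDUFB11, a membrane-arm subunit, had -0.95 under siScram and -0.56 under siPCF11 in the authors' deposited tables (limma adjusted p = 0.0061). ATP5MG had -0.72 and -1.14 there (limma adjusted p = 0.00030). The highest member was SDHB of complex II, at 0.68 in the authors' deposited tables, which was not called (limma adjusted p = 0.16). Window centring ended the calls of NDUFV1, NDUFS3, NDUFA1, COX6A1 and COX7B, with limma adjusted p between 0.067 and 0.36. Mitochondrial ribosomal proteins were closer to the background, with 42 of 66 below 0 and a median of -0.073 (window-centred -0.062).

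The unfolded protein response, which raises ER chaperones when folding capacity is short, had 24 of 30 genes below 0, with a median of -0.24 and a window-centred median of -0.21. Below -0.5 were 9 of the 30 genes, against 6.98% of all genes. Of 29 tested, 6 were called by limma, all lower in WT cells, against 2.82% of all tested genes. They were HYOU1, DNAJB9, PDIA4, HSPA5, HSP90B1 and CALR, all chaperones or folding enzymes of the ER. HSPA5, the chaperone BiP, was at -0.65 under siScram and -0.70 under siPCF11 in the authors' deposited tables (limma adjusted p = 0.018). DNAJB9, its ER co-chaperone, was at -0.63 and -1.38 there (limma adjusted p = 6.83e-05). With siScram the sensors and XBP1 were nearer 0 than the 6 called genes, but ATF6 was below the list median of -0.24. In the authors' deposited tables ATF6 was at -0.31, EIF2AK3 (PERK) at -0.24, XBP1 at -0.05 and ERN1 (IRE1) at 0.02 with siScram, and these were not called. The highest members were the oxidoreductases ERO1B at 0.40 and ERO1A at 0.44 in the authors' deposited tables. After window centring PDIA4 was no longer called (limma adjusted p = 0.11).

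The ER stress response element is the sequence CCAAT, any 9 bases and CCACG, bound by NF-Y together with ATF6. Searched on both strands of the RefSeq promoters, from 250 bases before the start to 50 after it, it was found in 11 of 6554 promoters (0.168%), and 7 of these belong to the 28 promoters of the unfolded protein response list (25.0%). The 7 are shown with both parts in capitals, where CGTGG and ATTGG are the same element on the other strand. HSP90B1 holds 2 matches, of which 1 is shown.
CALR (siScram -1.02, chr19:12938372-12938414, plus strand): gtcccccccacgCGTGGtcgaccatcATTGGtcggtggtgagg
HSPA5 (siScram -0.65, chr9:125241379-125241421, minus strand): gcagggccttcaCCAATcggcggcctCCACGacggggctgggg
HSP90B1 (siScram -0.58, chr12:103930309-103930351, plus strand): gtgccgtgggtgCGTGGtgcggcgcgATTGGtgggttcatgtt
CANX (siScram -0.32, chr5:179698766-179698808, plus strand): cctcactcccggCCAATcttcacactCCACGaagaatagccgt
CRELD2 (siScram -0.23, chr22:49918542-49918584, plus strand): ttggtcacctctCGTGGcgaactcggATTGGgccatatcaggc
XBP1 (siScram -0.05, chr22:28800591-28800633, minus strand): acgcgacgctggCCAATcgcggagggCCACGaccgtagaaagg
ERO1B (siScram 0.40, chr1:236282171-236282208, minus strand): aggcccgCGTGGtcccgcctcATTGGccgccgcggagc
The values are again those of the authors' deposited tables. Of the 11 genes with the element, 10 had a siScram ratio below 0, with a median of -0.32, where 51.1% of all genes were below 0. The other 4 were ZNF17, FICD, SERP1 and TMEM120A, with ratios between -0.43 and -0.03 in the authors' deposited tables, and were named after their values were seen. Within the list, genes with the element had a median of -0.32 and the 21 genes without it one of -0.24, so the low ratios were not limited to promoters that hold it.

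ATF4 is the transcription factor of the integrated stress response, and it drives genes of amino acid synthesis and uptake. Of 31 genes in its list, 23 were below 0, with a median of -0.21 (window-centred -0.21), but the siPCF11 median was -0.037 and 16 of 31 genes were below 0 there. CHAC1, NUPR1, DDIT3 and STC2 were called by limma, all lower in WT cells. CHAC1, which degrades glutathione, was at -1.18 under siScram and -0.33 under siPCF11 in the authors' deposited tables (limma adjusted p = 0.0060). DDIT3, the stress factor CHOP, was at -0.59 and -0.89 there (limma adjusted p = 0.0078). The enzymes of serine and asparagine synthesis, PHGDH, PSAT1, PSPH and ASNS, were between -0.44 and -0.23 with siScram in the authors' deposited tables and were not called. SLC7A1, a transporter of cationic amino acids, was highest at 0.56 in the authors' deposited tables.

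The amino acid response element, searched as TGATGNAA on both strands, was in 5 of 25 promoters of the ATF4 list and in 107 of 6554 promoters (1.63%). It is shown in capitals for 3 of the 5, with CHAC1 on the opposite strand.
CHAC1 (siScram -1.18, chr15:40953250-40953281, plus strand): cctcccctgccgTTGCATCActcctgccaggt
ASNS (siScram -0.44, chr7:97872457-97872488, minus strand): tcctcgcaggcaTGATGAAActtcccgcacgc
ATF3 (siScram -0.24, chr1:212565204-212565235, plus strand): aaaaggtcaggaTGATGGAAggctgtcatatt
In the authors' deposited tables the other 2 genes with it, SLC3A2 and SLC7A1, were at -0.62 and 0.56. The 5 genes had a median of -0.44 and the 20 list genes without the element one of -0.16. Over all 107 promoters with the element the median was -0.078.

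**Figure D4:**
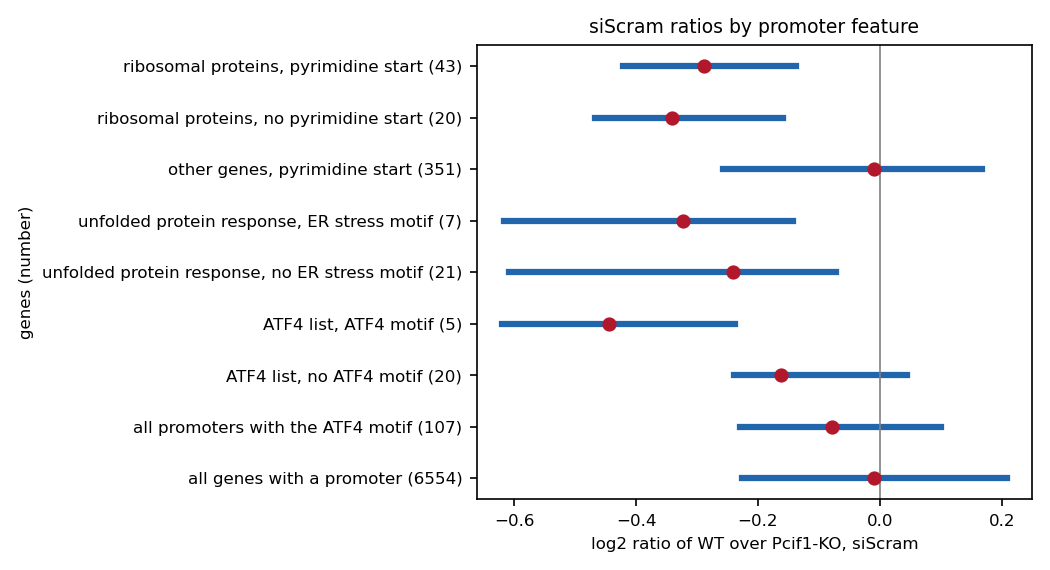
Median siScram log2 ratio of WT over Pcif1-KO (red points) with the middle 50% of genes (blue bars) by promoter feature, with the number of genes in brackets. The ER stress motif is CCAAT, any 9 bases and CCACG, and the ATF4 motif is the amino acid response element. Ribosomal genes lie near -0.3 with or without the pyrimidine start, and other genes with that start lie at -0.0088.

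Further lists of protein supply and metabolism lay on the same side. Genes of the ER translocon and glycosylation had 29 of 38 below 0 (median -0.16, window-centred -0.16), and 1, SEC63, fell in WT relative to Pcif1-KO cells by limma. Lysosome and autophagy genes had 30 of 43 below 0 (median -0.18, window-centred -0.15). ATG13, which starts autophagosome formation with ULK1, was lower in WT cells and LAMP1, a lysosomal membrane protein, higher, by limma. ATG13 was at -0.999 under siScram and -0.79 under siPCF11 in the authors' deposited tables (limma adjusted p = 0.00059). SEC63 and LAMP1 were not called after window centring, at limma adjusted p of 0.054 and 0.10. Cytosolic tRNA synthetases had 16 of 22 below 0 (median -0.20, window-centred -0.23) with siScram but a median of 0.022 with siPCF11. Glycolysis genes had 13 of 18 below 0, with a median of -0.15 (window-centred -0.099), but a median of -0.024 with siPCF11. Translation initiation and elongation factors lay at -0.046 (window-centred -0.063), nearer the median of all genes, with EIF4EBP1, the inhibitor of cap-binding eIF4E, called lower in WT cells at -0.80 in the authors' deposited tables (limma adjusted p = 0.0040).

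Families of developmental and neural genes varied among their members. The BEX and TCEAL family, a cluster of small X-linked genes, had 9 of 12 below 0 with a median of -0.31, and -0.16 after window centring. BEX1, BEX3, BEX5 and TCEAL9 were lower in WT cells by limma. BEX1 had -1.17 under siScram and -2.15 under siPCF11 in the authors' deposited tables (limma adjusted p = 7.07e-14). Set against their neighbours within 10 Mb, BEX3, BEX5 and TCEAL9 lost their calls, with limma adjusted p between 0.13 and 0.16. Of the protocadherins, cell adhesion proteins of the nervous system, 4 of 5 were below 0 (median -0.37, window-centred -0.46), and PCDH7 and PCDH9 fell in WT relative to Pcif1-KO cells by limma. PCDH9 was at -0.92 and -1.49 in the authors' deposited tables (limma adjusted p = 4.14e-07).

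Ligands and receptors of axon guidance had 16 of 23 genes below 0, with a median of -0.30 and a window-centred median of -0.31, but their siPCF11 median was -0.066. The ligands moved in different directions. The midline cues NTN1 and SLIT2 fell in WT relative to Pcif1-KO cells by limma, and EFNB2, the ephrin-B2 ligand, rose. In the authors' deposited tables NTN1 was at -0.97 under siScram and -0.91 under siPCF11 (limma adjusted p = 0.00026). SLIT2 was at -0.89 and -0.93 (limma adjusted p = 0.00044) and EFNB2 at 0.83 and 0.92 (limma adjusted p = 0.00080) in the authors' deposited tables. Of the SLIT receptors, ROBO1 was at -0.30 and ROBO3 at -0.15 with siScram in the authors' deposited tables. ROBO1 was not called, and ROBO3, lacking a siPCF11 ratio, was not tested.

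The HOX genes, which set position along the body axis, had the highest median of the lists with at least 5 genes, 0.24, with 22 of 31 genes above 0, where 48.9% of all genes were. The window-centred median was 0.21 and the siPCF11 median 0.22. HOXA10, HOXB3, HOXB4 and HOXC6 rose in WT relative to Pcif1-KO cells by limma, while HOXB6 fell. HOXA10 was at 0.86 under siScram and 1.07 under siPCF11 in the authors' deposited tables (limma adjusted p = 0.00014). HOXB6 was at -0.62 and -1.52 there (limma adjusted p = 1.24e-05). HOXB3 and HOXC6 were no longer called after window centring (limma adjusted p = 0.086 and 0.058). Within the HOXB cluster, HOXB4 at 0.75, HOXB5 at 0.27 and HOXB6 at -0.62 are close neighbours on chromosome 17 in the authors' deposited tables, so 1 direction did not hold across the cluster. Neighbouring HOX genes overlap in their transcripts, and reads could be split between them.

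Genes that write, erase and read m6A and m6Am had a median of 0.21 with 13 of 20 above 0, and 0.14 after window centring. YTHDF1, a cytosolic reader on chromosome 20, was at 0.54 under siScram and 0.96 under siPCF11 in the authors' deposited tables and was the 1 member called, higher in WT cells (limma adjusted p = 0.0067). Relative to its neighbours within 10 Mb YTHDF1 was not called (limma adjusted p = 0.43). In the authors' deposited tables the reader YTHDF2 was at 0.56 and 0.60, but it was not called. The writer subunits METTL3 and METTL14 were at -0.16 and 0.44 with siScram in the authors' deposited tables, so the catalytic pair did not lie on the same side. WTAP and FTO, the m6A demethylase that also acts on m6Am, were at 0.72 and 0.41 with siScram but at -0.18 and -0.37 under siPCF11 in the authors' deposited tables.

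Genes of DNA replication had 24 of 37 above 0 (median 0.086, window-centred 0.060) and 7 above 0.5, against 6.11% of all genes. RPA2, PCNA and GINS1 rose in WT relative to Pcif1-KO cells by limma, and CDC6, the origin licensing factor, fell. RPA2, a subunit of the single-strand binding complex, was at 0.98 under siScram and 0.51 under siPCF11 in the authors' deposited tables (limma adjusted p = 0.0075). The origin recognition subunit ORC6 was at 0.86 and 0.09 there and was not called. The nuclear exosome, which degrades unstable nuclear RNA, had 14 of 20 genes above 0 (median 0.15, window-centred 0.19), but its catalytic subunit DIS3 was called lower in WT cells, at -0.48 and -0.97 in the authors' deposited tables (limma adjusted p = 0.0099). Nuclear pore genes had 21 of 29 above 0 (median 0.081, window-centred 0.17), with NUP205, a scaffold subunit, called lower in WT cells at -0.56 in the authors' deposited tables (limma adjusted p = 0.021). The calls of RPA2, PCNA, GINS1, DIS3 and NUP205 were lost after window centring, with limma adjusted p between 0.099 and 0.35. Under siPCF11, 22 of 40 replication genes were above 0, with a median of 0.044. The nuclear exosome had 10 of 20 genes above 0 there (median -0.015) and the nuclear pore 14 of 29 (median -0.0050).

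Factors of 3′ end formation, the process that PCF11 serves, lay near 0 as a group, with 16 of 28 above 0 and a median of 0.036 (window-centred 0.060). CSTF1, a subunit of the cleavage stimulation factor on chromosome 20, was at 1.09 under siScram and 0.18 under siPCF11 in the authors' deposited tables (limma adjusted p = 0.033, higher in WT cells), but was not called after window centring (limma adjusted p = 0.51). RBBP6 was at -0.73 and -0.59 there (limma adjusted p = 0.023, lower in WT cells). PCF11 had -0.44 under siScram and -0.45 under siPCF11 in the authors' deposited tables, and lies on chromosome 11, relative to whose median it was at -0.15 with siScram. Reads from the 3′ end also follow the choice of cleavage site, so the amount of RNA and the site used cannot be told apart in a ratio.

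**Figure D5:**
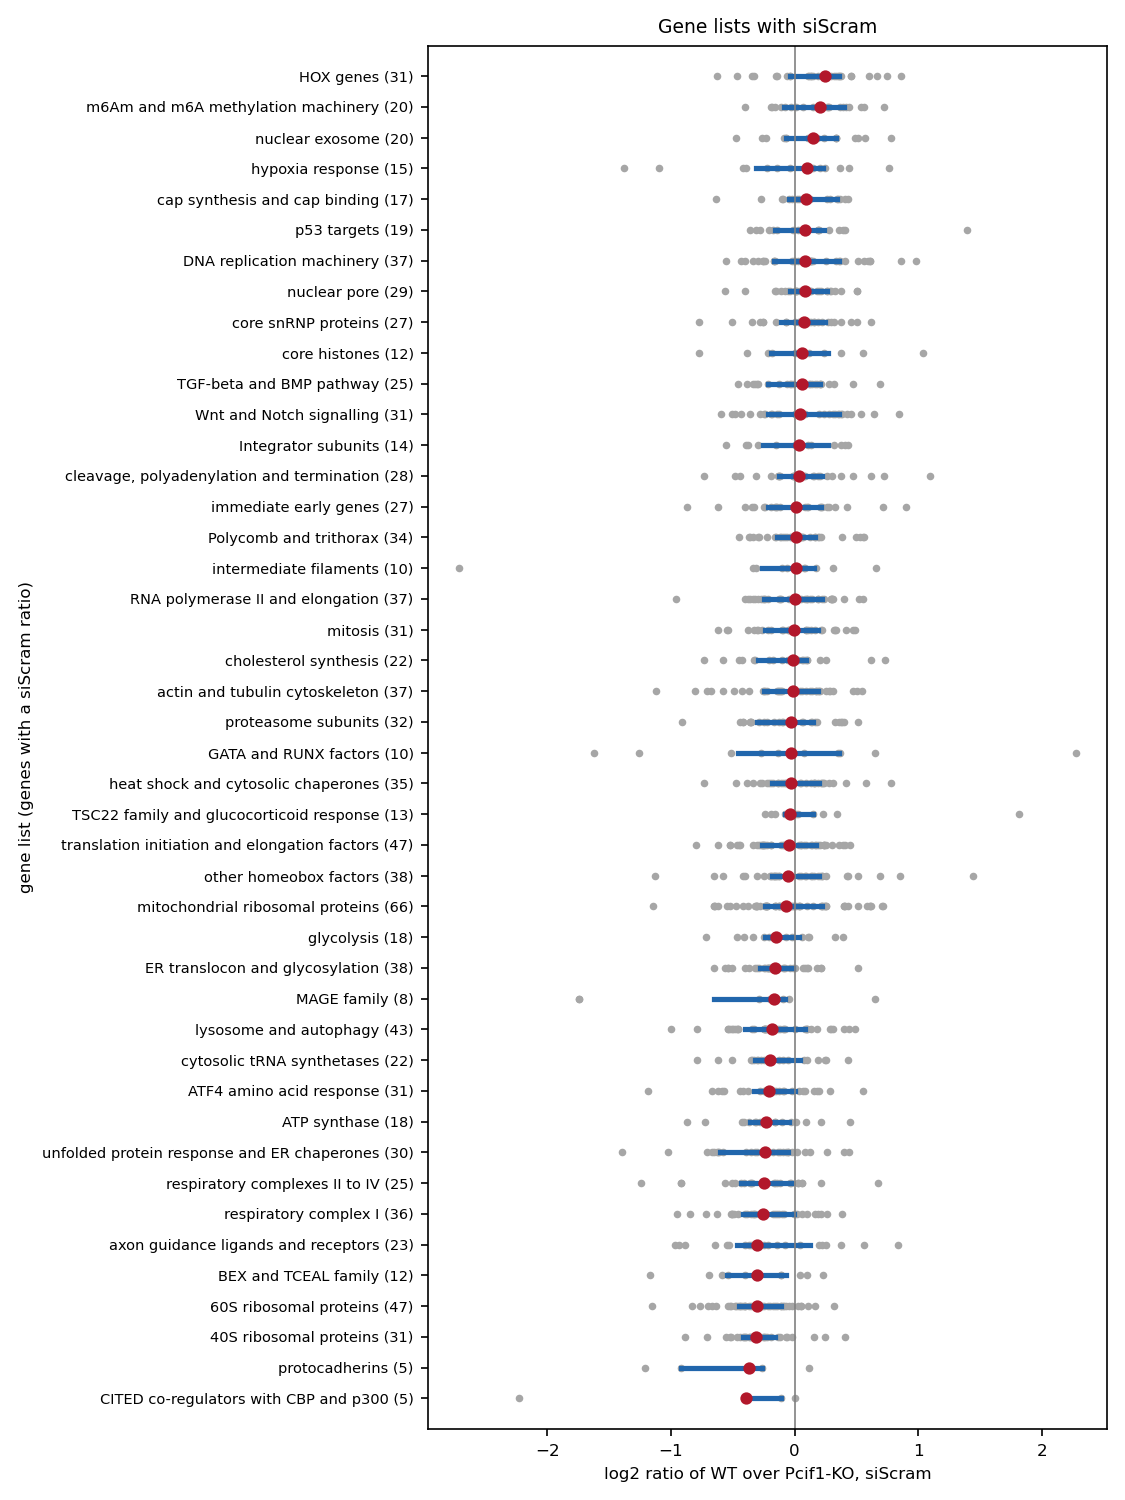
siScram log2 ratios of WT over Pcif1-KO (x axis) for the 44 gene lists with at least 5 genes, ordered by median, with the number of genes in brackets. Grey points are genes, blue bars the middle 50% and red points the median. HOX genes (0.24) stand at the top, and the ribosomal subunits (-0.31 each) stand near the bottom, above the protocadherins and the CITED list, which hold 5 genes each.

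Most other lists had medians near 0, with extremes that belonged to 1 or a few genes. H4C3, a replication-dependent histone H4 gene, was at 1.04 under siScram and 2.09 under siPCF11 in the authors' deposited tables (limma adjusted p = 3.05e-12, higher in WT cells), in a list of core histones with a median of 0.060 (window-centred 0.16). NR4A1 and CCN1, both immediate early genes, were called in opposite directions, at 0.90 and -0.87 with siScram in the authors' deposited tables. CITED2, which also binds CBP and p300, was called lower in WT cells at -0.41 and -0.83 in the authors' deposited tables (limma adjusted p = 0.041), while CITED4 was at 0.00 with siScram. That call of CITED2 was lost after window centring (limma adjusted p = 0.12). Of 37 tested genes of the cytoskeleton list, 4 (10.8%) were called lower in WT cells by limma, against 2.82% of all tested genes. They were CFL1, TUBB2B, ACTR2 and MAP4, with siScram ratios between -1.12 and -0.68 in the authors' deposited tables. The list had a median of -0.013 (window-centred -0.089).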

How the data were processed

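Libraries were prepared from nuclear RNA of HEK293T cells with a kit that reads mRNA from the 3′ end, per the labels' protocols. Per the submitters' processing notes, the tools were DESeq2 1.30.1, HTSeq 2.0.1, STAR 2.7.10a, cutadapt 3.7 and bcl2fastq 2.20, and the build was hg38, but the notes as used here give no roles. The authors deposited log2 ratios (WT over Pcif1-KO) in 2 tables, 1 for each length class, with separate columns for the m6Am class and for each siRNA. Not given in the sources used here are the library scaling, any shrinkage of the ratios, the filter on genes, the line between length classes and the assignment of m6Am genes. Counts and errors were not used here, so no depth, interval or filter on low values could be given.

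Groups came from the sample titles. Of 8 libraries, 4 underlie the ratios used, 1 per genotype and siRNA, and the other 4 were not analysed here. Medians and counts describe 1 library pair and genes were not treated as replicates. With limma 3.58.1 a mean of 0 over the siScram and siPCF11 ratios was tested, two-sided and with moderated variance, and p-values were adjusted by Benjamini and Hochberg over 7591 genes. These leave 1 residual degree of freedom per gene, but limma gave the common SD infinite prior degrees of freedom. Each p-value thus rests on that SD and not on the gene's own spread. In the fit on window-centred ratios the prior degrees of freedom were 37.4, so a gene's own spread had some weight there. The p-values cover the spread between library pairs of the same lines only. The fit was tested on simulated data with normal noise of 1 common SD for all genes. That simulation cannot show how the fit handles noise that differs between genes.

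Gene IDs were matched to symbols and to RefSeq genes and promoters (GRCh38.p14). Named are PCF11 and DIS3, the 15 highest and 15 lowest siScram genes, each list's highest, lowest and median gene, each deposited block's extremes and list members that passed the test or hold a searched motif. Other list members were named after their values were seen. The 53 lists, the genes described and the chromosomes set aside were chosen with earlier results of these data known. Alternatives were other centrings, leaving out chromosomes 11, 20, 21 and X, only genes listed under both siRNAs, and unmoderated variance.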

Additional observations from a re-analysis of the deposited data

Results flagged for a closer look

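A few values pointed one way with siScram and the other way with siPCF11. MVD, which encodes mevalonate decarboxylase of cholesterol synthesis, was at -0.74 under siScram and 0.52 under siPCF11 in the authors' deposited tables. CDKN1A, the gene of the cell cycle inhibitor p21, was at -0.36 and 0.53 there. In the authors' deposited tables CFL2, a cofilin of muscle, was at 0.55 and -0.41, and CCNK, the cyclin partner of CDK12 and CDK13, at 0.55 and -0.32. The median of the hypoxia response list was 0.10 with siScram and -0.22 with siPCF11. With 1 library pair per siRNA, the difference between the siRNAs was not tested for any of these. For the single genes, only ratios farther than the SD between library pairs, 0.28, on both sides of 0 were considered.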

How the results depend on the processing

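Counts of single genes depended on the moderation of the variance and on the shifts of whole chromosomes. Without chromosomes 11, 20, 21 and X, 27 genes lay below -1, against 41 with them. limma called 203 genes above and 214 below 0; the counts were 131 and 124 without those chromosomes, 115 and 126 after centring on 10 Mb windows, and 0 and 0 with ordinary variance per gene. Relative to the median of all genes, the long m6Am median was 0.032 in place of 0.023. The long non-m6Am median of -0.0095 was 0.0028 after window centring, so its direction turned. The short non-m6Am median of -0.030 was -0.00085 after chromosome centring, 0.011 after window centring and -0.015 without those chromosomes, so its direction turned in 1 of these settings. Of 45 list medians, 4 changed sign with window centring and 6 with chromosome centring, and the largest that did so was 0.058 in size. Among the 112 called genes that belong to a list or were named, limma kept 109 calls relative to the median of all genes, 87 after chromosome centring and 69 after window centring, and 0 with ordinary variance. Of the 76 with a place outside those chromosomes, 70 kept their call there. No called mean changed its sign in these settings. The fit on window-centred ratios also moderated the variance less than the main fit, so a call lost there need not reflect the neighbours alone. Among 84 uncalled genes, INSIG1 became called after window centring (limma adjusted p = 0.023, against 0.088). Libraries were paired across genotypes by siRNA alone, since each group has 1 library and the labels carry no replicate numbers. Unknown depth leaves the precision of single ratios unknown.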

Other observations

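Several gene groups with medians near 0 held single genes with a clear difference between the genotypes. Of 19 p53 targets, 12 were above 0 (median 0.087, window-centred 0.092), and besides PHLDA3 the apoptosis gene BBC3 (PUMA) rose in WT relative to Pcif1-KO cells by limma, at 0.20 under siScram and 1.17 under siPCF11 in the authors' deposited tables (limma adjusted p = 0.017). MDM2, the ligase that degrades p53, was at -0.28 and -0.12 there and was not called. In the TGF-beta and BMP pathway (25 genes, median 0.058 but -0.032 after window centring), SKI, a repressor of SMAD signalling, was higher and ID4, a target of BMP signalling, lower in WT cells. SKI was at 0.69 and 0.63 in the authors' deposited tables (limma adjusted p = 0.023), and ID4 at -0.46 and -1.42 (limma adjusted p = 0.00026).

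Wnt and Notch genes (31, median 0.042, window-centred 0.10) had HES4, a Notch target, called higher in WT cells, and RNF43, a ligase that removes Wnt receptors, called lower. HES4 was at 0.39 and 1.09 in the authors' deposited tables (limma adjusted p = 0.0080), and RNF43 at -0.60 and -1.05 (limma adjusted p = 0.0020). Among homeobox genes outside the HOX clusters (38, median -0.050, window-centred -0.026), UNCX and TGIF2 were called higher and MEIS3 and SATB1 lower in WT cells. MEIS3, a cofactor of HOX proteins, was at -1.13 and -0.62 in the authors' deposited tables (limma adjusted p = 0.00086). Of the chaperones of the cytosol (35, median -0.033, window-centred -0.030), HSPH1 was called higher and DNAJB6 lower in WT cells, at 0.78 and -0.73 under siScram in the authors' deposited tables. After each ratio was set against the median of its neighbours within 10 Mb, limma no longer called BBC3, SKI, HES4, TGIF2 or HSPH1, with adjusted p between 0.076 and 0.44.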
